A study of Homo sapiens with 6 samples.

Results

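The 41 genes described here make, lengthen, desaturate, activate, burn and store fatty acids. They were picked by symbol, in 7 groups by role, out of the 58721 genes of the deposited count table, and all 41 passed the filter on low counts. The counts came from 6 polyadenylated RNA libraries of A549, a human cell line from a lung adenocarcinoma, grown in DMEM with serum. In 3 libraries the cells were labelled as overexpressing the R98W form of KAT8 (R98W), an amino acid substitution, and in 3 as overexpressing wild-type KAT8 (WT). KAT8, also called MOF, is a lysine acetyltransferase of histone H4, and the series concerns its Tudor-knot domain. The sources used here do not say whether the chromosomal KAT8 gene was kept, whether a line was 1 clone or whether replicates were separate cultures. The p-values therefore refer to the spread among 6 libraries, and part of that spread may be technical.

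Cells build palmitate in the cytosol from acetyl-CoA that ACLY releases from citrate. The acetyl-CoA carboxylases make malonyl-CoA, FASN joins it into palmitate with NADPH, and ELOVL elongases and SCD or FADS desaturases give longer and unsaturated chains. Once activated to acyl-CoA, a fatty acid is either built into phospholipid and triglyceride (triglyceride is kept in lipid droplets) or carried as carnitine ester into mitochondria for beta-oxidation, a step that malonyl-CoA inhibits. SREBP factors drive the synthesis genes, and PPAR receptors sense fatty acids. A549 cells derive from alveolar epithelium, where fatty acids feed surfactant phospholipid.

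Levels are CPM, reads per 1000000 counted reads after TMM scaling (a normalisation that assumes most genes unchanged), sets of 3 values run from replicate 1 to replicate 3, and differences are log2 fold changes of R98W over WT. The libraries held 90007121 to 110152936 counts. KAT8 itself was 166, 196 and 236 CPM in R98W, against 12.2, 195 and 184 CPM in WT. The library labelled WT replicate 1 was therefore low in KAT8, which goes against its label, and counts of calls are given with and without it, as are genes whose call it decided. KAT8 differed by 0.61 ± 0.48 on the log2 scale (SE, edgeR adjusted p = 0.362), or 0.063 (edgeR adjusted p = 0.687) without that library. A gene is called higher or lower when its edgeR p, adjusted over all 20713 tested genes, is under 0.05. The 8 epithelial and A549 markers summed to 25929 to 28625 CPM in R98W and 27047 to 27669 CPM in WT, although of the 8 genes 2 were higher, KRT19 at 0.48 (edgeR adjusted p = 3.53e-05) and AKR1B10 at 0.29 (edgeR adjusted p = 0.000972), and 2 lower, EPCAM at -0.86 (edgeR adjusted p = 0.000151) and ALDH1A1 at -0.20 (edgeR adjusted p = 0.0154). Of the 6 alveolar type II markers 5 were under 1 CPM in every library, among them the surfactant protein genes, and the sum, nearly all ABCA3, was 43.2 to 45.1 CPM in R98W and 55.4 to 63.4 CPM in WT, with ABCA3 called lower, at -0.39 (edgeR adjusted p = 0.000312). Of the adipocyte markers 5 of 6 were under 1 CPM everywhere, with ADIPOQ at 0 counts, as were 5 of 7 fibroblast, 5 of 6 leukocyte and 4 of 4 endothelial markers. Their summed levels ran from 4.90 to 6.66 CPM in R98W and 5.84 to 7.11 CPM in WT for adipocytes, from 12.1 to 13.5 CPM in R98W and 12.2 to 16.6 CPM in WT for fibroblasts (mostly COL1A1), from 6.25 to 8.95 CPM in R98W and 7.48 to 8.49 CPM in WT for leukocytes, and under 1 CPM throughout for endothelium. The fibroblast marker THY1 was called lower, with 0.341 ± 0.0582 CPM in R98W and 2.01 ± 0.372 CPM in WT (SD, n = 3 each), or -2.55 on the log2 scale (edgeR adjusted p = 2.43e-07). The part of these marker changes in the results was not tested.

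The desaturase SCD, the elongase ELOVL5, the phosphatidate phosphatase LPIN1 and the secreted lipase inhibitor ANGPTL4 were higher in R98W, while the acyltransferase GPAM fell furthest by log2 fold change of the 41 genes. In all, 14 of the 41 genes were higher and 7 lower in R98W, beside 16.2% and 18.5% of all tested genes. Without WT replicate 1 the counts were 15 higher and 8 lower, beside 15.2% and 18.4% of all tested genes. They were 6 and 5 without R98W replicate 1, where 2666 of 21477 tested genes were higher and 3299 lower. They were 7 and 6 without WT replicate 3, where 2340 of 21326 tested genes were higher and 3060 lower. With all libraries 3364 of 20713 tested genes were higher and 3839 lower. In bulk RNA a change in the share of cells that express a gene and a change in RNA per cell cannot be told apart. The median log2 fold change of the 41 genes was 0.15, that of all tested genes -0.005. The libraries of the groups did not overlap for 15 genes on the higher side and 6 on the lower side, beside 21.3% and 24.2% of all tested genes.

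**Figure D1:**
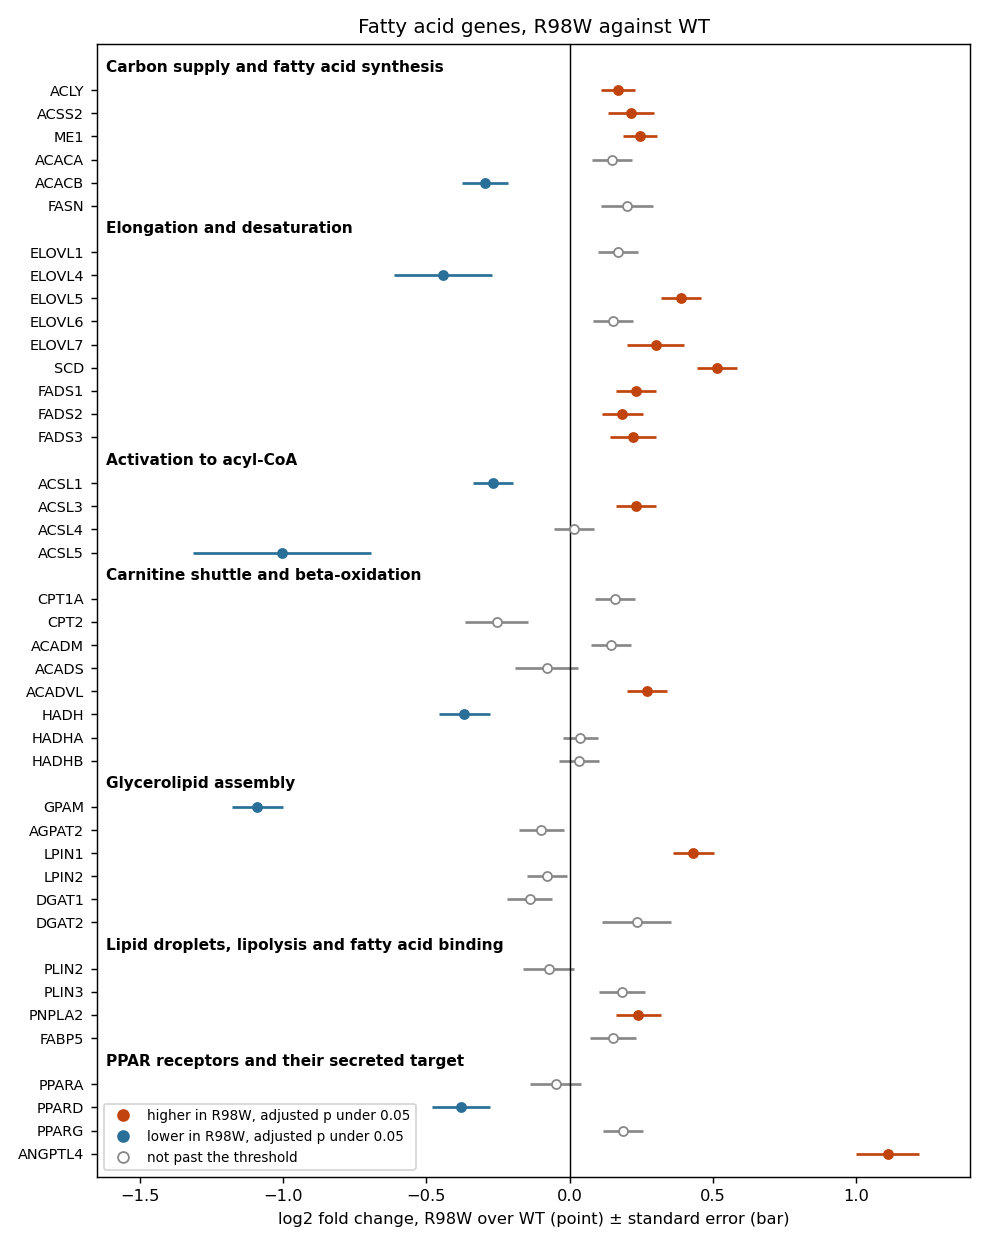
Log2 fold change of R98W over WT (x axis, points) with its standard error (bars) for the 41 genes, grouped by role down the page. Filled points were called by edgeR. Of the 15 synthesis, elongation and desaturation genes 13 lie above 0, whereas GPAM at -1.09 and ANGPTL4 at 1.11 lie farthest from 0.

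Calls of a rise were more frequent among abundant genes, and 14 of the fatty acid genes averaged 100 CPM or more. At a mean level of 100 CPM or more, 46.4% of all tested genes were called higher and 6.8% lower, with a median log2 fold change of 0.161. The 14 fatty acid genes at that level had 8 higher and 0 lower, with a median of 0.19. The 8 of them that serve synthesis, elongation or desaturation had 6 higher and a median of 0.22, and the other 6 had 2 higher and a median of 0.10. The 8 rises among the 14 became 4 without R98W replicate 1, 5 without R98W replicate 2, 4 without WT replicate 3 and 2 with the expression level corrected. Rises among all tested genes went from 3364 to 2666, 2602, 2340 and 3037 in the same settings. After a correction of each library for expression level, 8 of the 41 genes were higher and 6 lower, beside 14.7% and 17.3% of all tested genes, and the median of the 41 was 0.018. A correction for GC content gave 22 higher and 8 lower among the 41, where 3885 of all tested genes were higher and 3716 lower. One for exon length gave 23 and 6, where 3953 of all tested genes were higher and 3579 lower. The calls of ACACB, ELOVL5, SCD, HADH, GPAM, LPIN1, PPARD and ANGPTL4 were the same in all 17 alternatives tried, and each of the other 13 calls ended in at least 1 of them.

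**Figure D2:**
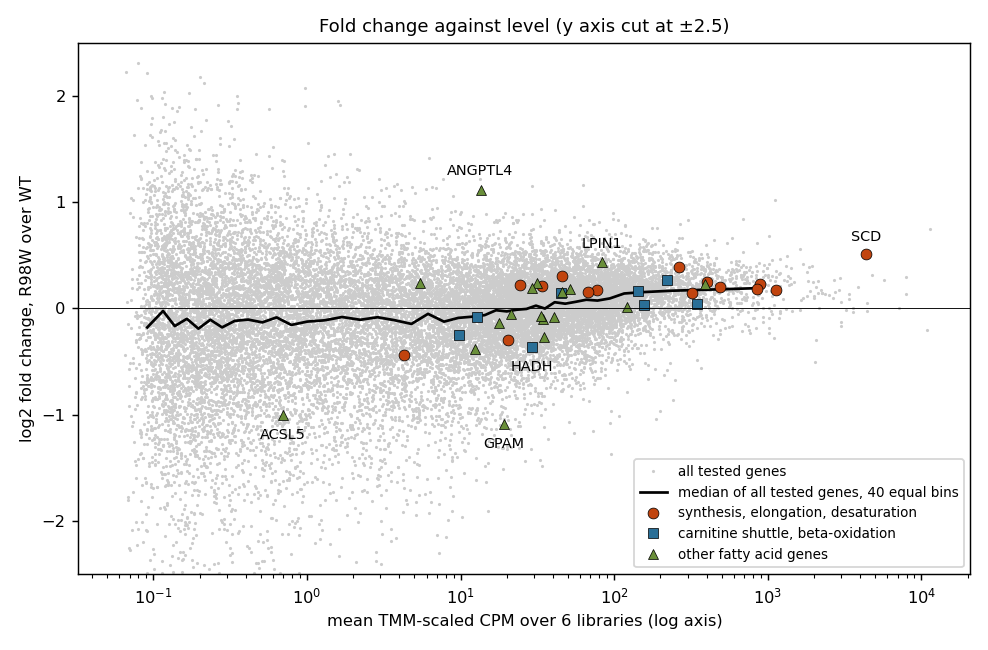
Log2 fold change of R98W over WT (y axis) against mean level (x axis, log scale) for all tested genes (grey, 121 genes lie beyond the y axis) with medians of 40 equal bins (line) and the fatty acid genes by role. The line is below 0 among weakly expressed genes and above 0 among abundant ones. SCD lies above its right end, GPAM and HADH below it.

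Both cytosolic sources of acetyl-CoA and the NADPH-producing malic enzyme ME1 were higher in R98W, and the second acetyl-CoA carboxylase gene, ACACB, was lower. Among all tested genes 16.2% were higher and 18.5% lower, and among those at 100 CPM or more 46.4% were higher. Of the 6 genes of carbon supply and synthesis 3 were called higher, 1 lower and 2 not, with a median of 0.19. The counts were the same without WT replicate 1, where FASN was called and ACSS2 was not. Without R98W replicate 1, R98W replicate 2 or WT replicate 3 the rises numbered 1, 1 and 1. Those among all tested genes numbered 2666, 2602 and 2340, against 3364 with all libraries. ME1 had 446, 448 and 416 CPM in R98W, against 383, 349.9 and 372 CPM in WT. All R98W libraries lay above all WT libraries, at 0.25 ± 0.06 on the log2 scale (SE, edgeR adjusted p = 0.00541). ACLY, the citrate lyase, had 1175, 1177 and 1226 CPM in R98W, against 1119.9, 1039 and 1021 CPM in WT, at 0.17 ± 0.06 on the log2 scale (SE, edgeR adjusted p = 0.0385), with no overlap. ACSS2, which makes acetyl-CoA from acetate, had 38.2, 37.3 and 33.6 CPM in R98W, against 28.8, 34.1 and 31.1 CPM in WT. R98W replicate 3 lay below WT replicate 2, so the groups overlapped, at 0.21 ± 0.08 on the log2 scale (SE, edgeR adjusted p = 0.0462). ACACB, whose product at the mitochondrial outer membrane makes the malonyl-CoA that restrains fatty acid import, had 18.01, 19.3 and 17.8 CPM in R98W, against 23.3, 23.2 and 21.2 CPM in WT. Every R98W library was below every WT library, at -0.30 ± 0.08 on the log2 scale (SE, edgeR adjusted p = 0.00748). The main cytosolic carboxylase gene ACACA had 338 ± 19.5 CPM in R98W and 305 ± 18.7 CPM in WT (SD, n = 3 each), at 0.15 ± 0.07 on the log2 scale (SE, edgeR adjusted p = 0.101). FASN, the fatty acid synthase, had 526 ± 31.7 CPM in R98W and 457 ± 72.01 CPM in WT (SD, n = 3 each), at 0.20 ± 0.09 on the log2 scale (SE, edgeR adjusted p = 0.0807). WT replicate 1 was the WT library with the most FASN, and FASN was called higher without it (0.32, edgeR adjusted p = 0.00243), whereas it stood at 0.10 (edgeR adjusted p = 0.359) without WT replicate 2. The ACLY call ended without R98W replicate 1, R98W replicate 2, R98W replicate 3, WT replicate 2 or WT replicate 3 (edgeR adjusted p from 0.0642 to 0.183), and the ACSS2 call without R98W replicate 1, R98W replicate 2, WT replicate 1 or WT replicate 3 (edgeR adjusted p from 0.14 to 0.199). Corrected for expression level, the log2 fold changes became 0.067 for ME1 (edgeR adjusted p = 0.42), -0.039 for ACLY (edgeR adjusted p = 0.631), 0.20 for ACSS2 (edgeR adjusted p = 0.0602) and 0.018 for FASN (edgeR adjusted p = 0.896), and 0 of the 6 genes were higher and 1 lower. Reads of ACSS2 may include the overlapping gene GGT7 on the other strand.

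The carboxylase genes also differed in their ratio. Per kilobase of exon, the share of ACACA in the sum of ACACA and ACACB was 95.5, 95.4 and 95.2% in R98W, against 93.9, 93.7 and 93.8% in WT. The shares did not overlap and the mean share of ACACB was 4.65 ± 0.129% in R98W and 6.22 ± 0.118% in WT (SD, n = 3 each).

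Desaturases and elongases formed the group with the most called rises. Of 9 genes 6 were higher, 1 lower and 2 not called, with a median log2 fold change of 0.22, beside 16.2% higher and 18.5% lower among all tested genes and 46.4% higher among those at 100 CPM or more. Without WT replicate 1, 7 were higher and 1 lower, and corrected for expression level 4 were higher and 0 lower, with a median of 0.091. The count of rises was 2 without R98W replicate 1, and 3, 3 and 3 without R98W replicate 2, WT replicate 2 and WT replicate 3. Over all tested genes it was 2666, 2602, 2899 and 2340 in that order, against 3364 with all libraries. SCD, which puts the first double bond into stearate and palmitate, stood at rank 31 of all tested genes by mean CPM per kilobase of exon. SCD had 5362, 5379 and 4729 CPM in R98W, against 3945, 3417 and 3464 CPM in WT. The lowest R98W library was above the highest WT library, at 0.51 ± 0.07 on the log2 scale (SE, edgeR adjusted p = 1.28e-05). Corrected for expression level it was still called, at 0.27 (edgeR adjusted p = 0.00226). ELOVL5, which elongates polyunsaturated chains, had 309, 308 and 284 CPM in R98W, against 243, 216 and 229 CPM in WT. The groups were apart, at 0.39 ± 0.07 on the log2 scale (SE, edgeR adjusted p = 0.000159), or 0.23 (edgeR adjusted p = 0.00734) with the expression level corrected. FADS1, the desaturase that completes arachidonate, had 1019.5, 958 and 883 CPM in R98W, against 885, 777 and 775 CPM in WT. R98W replicate 3 lay just below WT replicate 1, so the groups overlapped, at 0.23 ± 0.07 on the log2 scale (SE, edgeR adjusted p = 0.0155). ELOVL7, another elongase, had 53.7, 53.1 and 45.3 CPM in R98W, against 46.1, 33.2 and 44.3 CPM in WT. WT replicate 2 was lowest and R98W replicate 3 lay below WT replicate 1, at 0.30 ± 0.10 on the log2 scale (SE, edgeR adjusted p = 0.0247). The ELOVL7 call ended without R98W replicate 1, R98W replicate 2 or WT replicate 2 (edgeR adjusted p from 0.0935 to 0.146), with a log2 fold change of 0.16 without WT replicate 2, and the FADS1 call without R98W replicate 1, R98W replicate 2 or WT replicate 3 (edgeR adjusted p from 0.0543 to 0.1). Corrected for expression level, FADS1 stood at 0.029 (edgeR adjusted p = 0.77).

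Of the other 5 genes, FADS2 and FADS3 were higher, ELOVL4 was lower, and ELOVL1 and ELOVL6 were not called. FADS2, which starts the desaturation of the essential fatty acids, had 902 ± 32.8 CPM in R98W and 793 ± 73.5 CPM in WT (SD, n = 3 each), at 0.18 ± 0.07 on the log2 scale (SE, edgeR adjusted p = 0.0453), and FADS3, its relative, had 26.1 ± 1.89 CPM in R98W and 22.4 ± 1.55 CPM in WT (SD, n = 3 each), at 0.22 ± 0.08 on the log2 scale (SE, edgeR adjusted p = 0.0444). ELOVL4, which makes very long chains, was the only called fall among these 9, with 3.63 ± 0.527 CPM in R98W and 4.94 ± 1.30 CPM in WT (SD, n = 3 each), at -0.44 ± 0.17 on the log2 scale (SE, edgeR adjusted p = 0.0484). ELOVL1, for very long saturated chains, and ELOVL6, which turns palmitate into stearate, were not called, at log2 fold changes of 0.17 and 0.15 (edgeR adjusted p = 0.0557 and 0.0887), though their R98W libraries all lay above their WT libraries. The FADS2 call ended without R98W replicate 1, R98W replicate 2, WT replicate 2 or WT replicate 3 (edgeR adjusted p from 0.0855 to 0.266). The FADS3 call ended without R98W replicate 1, R98W replicate 3, WT replicate 2 or WT replicate 3 (edgeR adjusted p from 0.0644 to 0.24) and the ELOVL4 call without R98W replicate 1, R98W replicate 2, R98W replicate 3 or WT replicate 3 (edgeR adjusted p from 0.0511 to 0.361), with a log2 fold change of -0.22 without WT replicate 3, while ELOVL1 was called without WT replicate 1 (edgeR adjusted p = 0.0466). Corrected for expression level, the values were -0.016 for FADS2 (edgeR adjusted p = 0.869), 0.091 for ELOVL1 (edgeR adjusted p = 0.308) and -0.32 for ELOVL4 (edgeR adjusted p = 0.173). FADS1 and FADS2 overlap each other on opposite strands of chromosome 11, and FADS2 overlaps FEN1 on its own strand, so their reads may be mixed. In the elongase family, the share of ELOVL5 in the summed level per kilobase of the ELOVL genes was 55.96, 55.7 and 55.7% in R98W, against 51.95, 50.7 and 51.6% in WT, with no overlap. Shares of ELOVL1, ELOVL3 and ELOVL7 overlapped, as did those of FADS1, FADS2 and FADS3 in the summed level of the FADS genes.

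**Figure D3:**
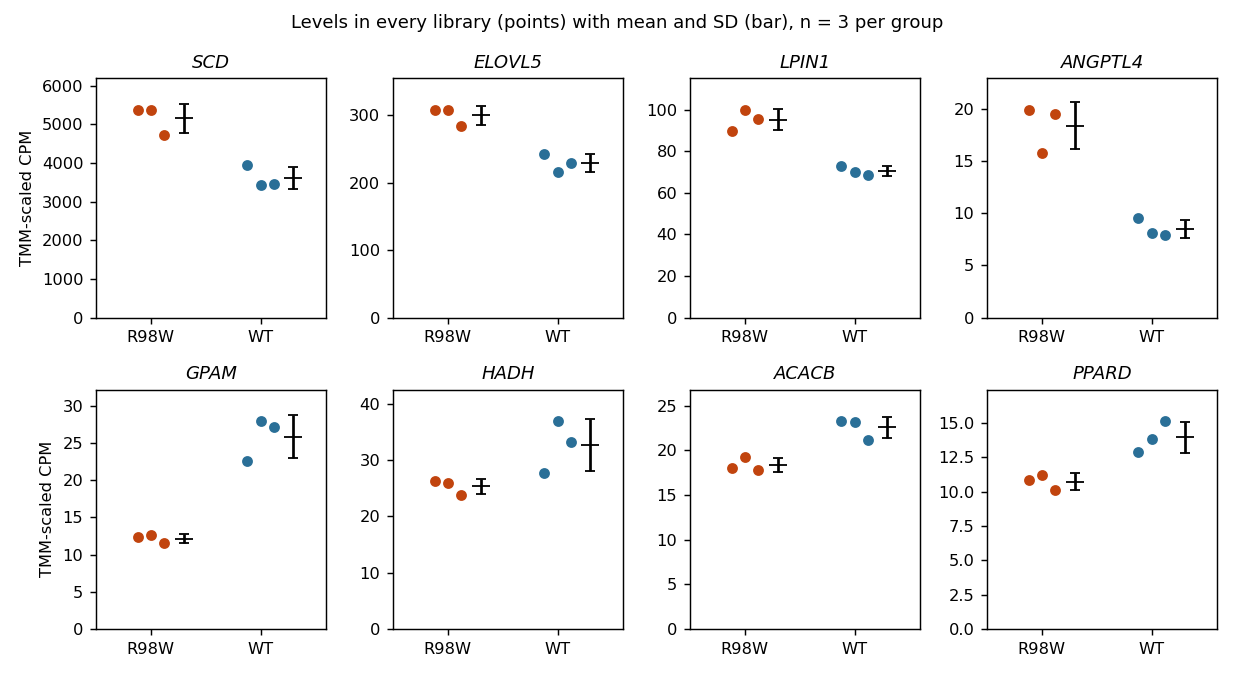
TMM-scaled CPM (y axes, from 0) in every library (points) with mean and SD (bars, n = 3 per group) for the 8 genes whose call was the same in all 17 alternatives. SCD, ELOVL5, LPIN1 and ANGPTL4 are higher and GPAM, HADH, ACACB and PPARD lower in R98W, with no overlap of libraries in any panel.

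Promoter windows are shown, 1 a gene, for the 8 genes whose call was the same in all alternatives (SCD, ELOVL5, LPIN1 and ANGPTL4 higher, GPAM, HADH, ACACB and PPARD lower), and for HADHA because it shares bases with the promoter of HADHB. Each is the 250 bases before a RefSeq transcript start (GRCh38.p14, a patch release of hg38), with motif matches in capitals. The motifs searched, on both strands and with no overlap between different motifs in these genes, were the CCAAT box CCAAT bound by NF-Y, the E-box CACGTG, the sterol regulatory element TCACNCCAC (any base at N) and an exact spelling of the PPAR direct repeat (PPRE), whose letters are not printed. The capitals below are CCAAT boxes (CCAAT or ATTGG) and, in ELOVL5, 1 E-box as well. CCAAT boxes occur among both the higher genes (SCD, ELOVL5) and the lower genes (HADH, ACACB, PPARD), and the LPIN1, ANGPTL4, GPAM and HADHA windows hold no match. LPIN1, HADH and ACACB have further windows in the table, not printed, with no match.
SCD (chr10:100346983-100347232, plus strand): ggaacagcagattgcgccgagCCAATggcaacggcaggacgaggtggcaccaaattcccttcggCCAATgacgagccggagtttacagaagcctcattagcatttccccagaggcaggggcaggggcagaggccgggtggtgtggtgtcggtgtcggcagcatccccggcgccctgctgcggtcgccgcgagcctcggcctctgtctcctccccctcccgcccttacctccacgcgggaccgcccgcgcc
ELOVL5 (chr6:53348951-53349200, minus strand): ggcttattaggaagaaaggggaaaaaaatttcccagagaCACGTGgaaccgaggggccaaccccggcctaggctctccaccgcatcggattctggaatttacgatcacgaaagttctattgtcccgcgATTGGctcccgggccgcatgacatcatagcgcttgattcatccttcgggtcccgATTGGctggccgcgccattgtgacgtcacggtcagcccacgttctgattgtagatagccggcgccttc
LPIN1 (chr2:11677294-11677543, plus strand): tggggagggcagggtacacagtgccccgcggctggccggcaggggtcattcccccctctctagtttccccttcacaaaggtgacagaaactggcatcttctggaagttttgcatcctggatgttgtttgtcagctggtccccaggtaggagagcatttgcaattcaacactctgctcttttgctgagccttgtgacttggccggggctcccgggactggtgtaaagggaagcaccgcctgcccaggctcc
ANGPTL4 (chr19:8363905-8364154, plus strand): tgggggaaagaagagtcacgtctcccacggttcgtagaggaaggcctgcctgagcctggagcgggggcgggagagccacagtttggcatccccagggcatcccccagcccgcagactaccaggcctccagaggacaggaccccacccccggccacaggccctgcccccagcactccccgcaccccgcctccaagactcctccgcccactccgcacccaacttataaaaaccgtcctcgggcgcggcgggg
GPAM (chr10:112183766-112184015, minus strand): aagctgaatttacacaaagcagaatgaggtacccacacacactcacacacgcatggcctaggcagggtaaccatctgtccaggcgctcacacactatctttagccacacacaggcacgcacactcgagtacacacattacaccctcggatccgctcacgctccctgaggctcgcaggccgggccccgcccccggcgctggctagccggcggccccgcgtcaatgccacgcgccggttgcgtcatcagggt
HADH (chr4:107989639-107989888, plus strand): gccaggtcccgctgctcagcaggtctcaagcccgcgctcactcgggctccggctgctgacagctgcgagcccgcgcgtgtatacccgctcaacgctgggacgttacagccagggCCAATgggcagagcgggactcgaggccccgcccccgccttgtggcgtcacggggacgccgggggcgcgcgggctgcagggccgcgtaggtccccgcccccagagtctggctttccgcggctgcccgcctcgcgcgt
ACACB (chr12:109154429-109154678, plus strand): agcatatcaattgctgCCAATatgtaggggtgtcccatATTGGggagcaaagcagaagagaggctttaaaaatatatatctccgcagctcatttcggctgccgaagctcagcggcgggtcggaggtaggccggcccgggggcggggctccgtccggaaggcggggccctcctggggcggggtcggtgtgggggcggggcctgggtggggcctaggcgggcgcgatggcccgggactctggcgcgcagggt
PPARD (chr6:35342308-35342557, plus strand): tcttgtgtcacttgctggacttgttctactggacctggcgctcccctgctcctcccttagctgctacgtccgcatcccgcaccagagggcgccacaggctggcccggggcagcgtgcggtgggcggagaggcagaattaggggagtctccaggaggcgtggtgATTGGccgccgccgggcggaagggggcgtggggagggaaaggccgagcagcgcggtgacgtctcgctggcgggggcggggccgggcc
HADHA (chr2:26244633-26244882, minus strand): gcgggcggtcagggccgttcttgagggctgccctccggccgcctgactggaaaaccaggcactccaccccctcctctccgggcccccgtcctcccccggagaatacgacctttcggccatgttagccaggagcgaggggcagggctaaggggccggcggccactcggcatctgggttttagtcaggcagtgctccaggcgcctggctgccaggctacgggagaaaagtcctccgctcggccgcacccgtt
A window was found for 37 of the 41 genes, 59 windows in all. FASN, DGAT1, DGAT2 and FABP5 had none, so the counts by role leave them out. CCAAT boxes stood in 18 of 59 windows (30.5%), beside 32.0% of all 35116 windows of the table. By role they stood in 6 of 10 windows of the carbon supply and synthesis genes, in 5 of 10 of the elongase and desaturase genes, in 2 of 9 of the activation genes, in 1 of 10 of the oxidation genes, in 0 of 7 of the glycerolipid genes, in 1 of 3 of the droplet genes and in 3 of 10 of the PPAR and ANGPTL4 genes. The E-box was in 4 of 59 windows, beside 6.34% of all. The sterol element matched in 2 of 59 windows, 1 each of ACSL1 and PNPLA2, beside 0.883% of all, and the PPAR repeat in 0 of 59, beside 0.0171%. Only 6 of all 35116 windows held that exact spelling, so 0 of 59 cannot show whether these genes have other PPAR elements. A match is only a stretch of letters, and windows of 1 gene can share bases.

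The acyl-CoA synthetases, which trap a fatty acid in the cell as its CoA ester, went in both directions. ACSL3 was higher, ACSL1 and ACSL5 were lower, and ACSL4 was not called, with a median of -0.13 and the same calls without WT replicate 1. Among all tested genes 16.2% were higher and 18.5% lower, or 15.2% and 18.4% without WT replicate 1. ACSL3, found on lipid droplets and the endoplasmic reticulum, had 443, 428 and 396 CPM in R98W, against 366, 342 and 372 CPM in WT. Its groups did not overlap, at 0.23 ± 0.07 on the log2 scale (SE, edgeR adjusted p = 0.00966). ACSL1, a major synthetase of fat and liver, had 30.7, 33.3 and 31.5 CPM in R98W, against 37.7, 41.1 and 36.1 CPM in WT, with all R98W libraries lower, at -0.27 ± 0.07 on the log2 scale (SE, edgeR adjusted p = 0.00887). ACSL5, a synthetase of mitochondria and the endoplasmic reticulum, was scarce, with 0.479, 0.548 and 0.37 CPM in R98W, against 0.874, 1.31 and 0.60 CPM in WT, from 39 to 151 counts. The R98W values were all lower, at -1.005 ± 0.31 on the log2 scale (SE, edgeR adjusted p = 0.0161). ACSL4, which prefers arachidonate and is a determinant of ferroptosis, had 129, 126 and 112 CPM in R98W, against 125, 111 and 128 CPM in WT. These values overlapped, at 0.016 ± 0.07 on the log2 scale (SE, edgeR adjusted p = 0.898). The share of ACSL3 in the summed level per kilobase of ACSL1, ACSL3, ACSL4, ACSL5 and ACSL6 was 70.9, 70.2 and 70.8% in R98W, against 66.2, 66.2 and 66.5% in WT, with no overlap. The ACSL3 call ended without R98W replicate 1 (edgeR adjusted p = 0.0613), the ACSL1 call without R98W replicate 1 (edgeR adjusted p = 0.0531) and the ACSL5 call without R98W replicate 3 or WT replicate 2 (edgeR adjusted p from 0.0726 to 0.142). With the level corrected, ACSL3 was at 0.052 (edgeR adjusted p = 0.558). ACSL5 overlaps ZDHHC6 on the other strand, a gene at 45.1 CPM on average.

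Of the 8 oxidation genes 1 was higher, 1 lower and 6 not called, beside 16.2% higher and 18.5% lower among all tested genes. Their median log2 fold change was 0.035. Without WT replicate 1 there were 1 higher and 2 lower, beside 15.2% and 18.4% of all tested genes. ACADVL, the dehydrogenase that opens the cycle for long chains, had 242, 222 and 262 CPM in R98W, against 215, 198 and 189.6 CPM in WT. It was higher in every R98W library than in any WT library, at 0.27 ± 0.07 on the log2 scale (SE, edgeR adjusted p = 0.00628). HADH, the hydroxyacyl-CoA dehydrogenase for medium and short chains, had 26.3, 25.99 and 23.8 CPM in R98W, against 27.8, 36.98 and 33.3 CPM in WT. It was lower in every R98W library, at -0.37 ± 0.09 on the log2 scale (SE, edgeR adjusted p = 0.00421). CPT1A, the carnitine acyltransferase that gates entry into mitochondria, had 161, 148 and 143 CPM in R98W, against 135, 143 and 126 CPM in WT, with overlap, at 0.16 ± 0.07 on the log2 scale (SE, edgeR adjusted p = 0.0849). CPT2, its partner on the inner membrane, had 8.75, 9.54 and 8.37 CPM in R98W, against 9.12, 10.98 and 11.7 CPM in WT, with overlap, at -0.25 ± 0.11 on the log2 scale (SE, edgeR adjusted p = 0.0816). Without WT replicate 1 CPT2 was called lower (-0.36, edgeR adjusted p = 0.0129), and without WT replicate 2 CPT1A was called higher (0.20, edgeR adjusted p = 0.0329). With the expression level corrected neither was called, at 0.033 for CPT1A (edgeR adjusted p = 0.754) and -0.16 for CPT2 (edgeR adjusted p = 0.301). The ACADVL call ended without WT replicate 3 (edgeR adjusted p = 0.0622) and with the expression level corrected (0.12, edgeR adjusted p = 0.203). CPT2 overlaps CZIB, and ACADVL overlaps DLG4, on the other strand.

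HADHA and HADHB, the alpha and beta subunits of the mitochondrial trifunctional protein, are neighbours on chromosome 2 in opposite orientation, and their RefSeq starts lie 307 bp apart, so that 194 bases of the HADHA window printed above also lie in the HADHB window. HADHA had 348 ± 9.90 CPM in R98W and 339 ± 20.2 CPM in WT (SD, n = 3 each) and HADHB had 158 ± 6.32 CPM in R98W and 155 ± 11.9 CPM in WT (SD, n = 3 each). Their log2 fold changes were 0.038 (edgeR adjusted p = 0.698) and 0.032 (edgeR adjusted p = 0.762). The genes overlap, so their reads may be mixed. The medium-chain dehydrogenase gene ACADM and the short-chain one, ACADS, had 0.14 and -0.08 (edgeR adjusted p = 0.112 and 0.609), and ACADM overlaps RABGGTB on its own strand.

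Summed levels of the synthesis genes were higher in R98W and those of the oxidation genes overlapped, and SCD weighed heavily in the first sum. The 15 genes of carbon supply, synthesis, elongation and desaturation had 9 higher and 2 lower with a median log2 fold change of 0.20, and 10 and 2 with a median of 0.25 without WT replicate 1. All tested genes had 16.2% higher and 18.5% lower, and those at 100 CPM or more 46.4% higher. The rises among the 15 numbered 3 without R98W replicate 1, 4 without R98W replicate 2, 5 without WT replicate 2 and 4 without WT replicate 3. Rises among all tested genes numbered 2666, 2602, 2899 and 2340 in that order, against 3364 with all libraries. For the 8 oxidation genes the medians were 0.035 with all libraries and -0.0041 without WT replicate 1. The synthesis genes summed, per kilobase of exon, to 1768, 1770.3 and 1629 CPM per kb in R98W, against 1437, 1267 and 1281 CPM per kb in WT, with no overlap. Without SCD the sums were 768, 767 and 747 in R98W, against 701, 630 and 635 in WT, also with no overlap. The oxidation sums were 212, 199 and 209 CPM per kb in R98W, against 191, 203 and 185 CPM per kb in WT, and overlapped. The ratio of the sums was 8.34, 8.88 and 7.81 in R98W, against 7.51, 6.26 and 6.93 in WT, with no overlap. Without SCD the ratio was 3.62, 3.85 and 3.58 in R98W, against 3.66, 3.11 and 3.43 in WT, and the groups overlapped. The overlap came from WT replicate 1, which lay above R98W replicates 1 and 3. The sums and the difference between the roles were not tested. Corrected for expression level, the counts were 4 higher and 1 lower for synthesis and 0 higher and 1 lower for oxidation, and the medians were 0.067 for synthesis and -0.052 for oxidation.

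**Figure D4:**
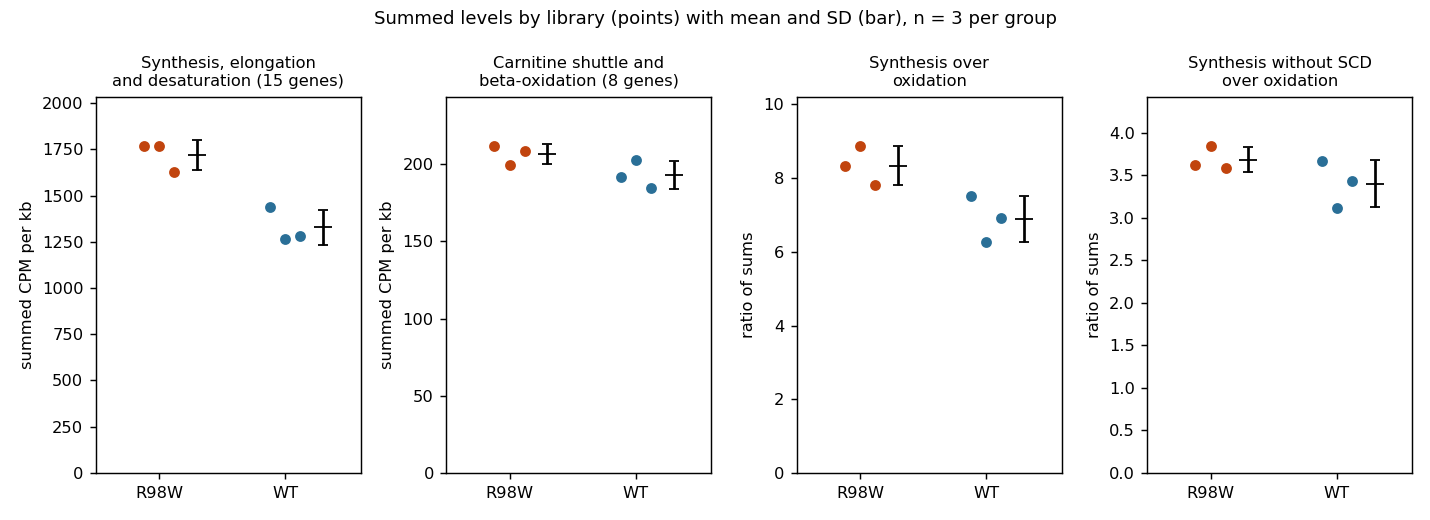
Summed levels per kilobase of exon of the synthesis and the oxidation genes, and their ratio with and without SCD (y axes, from 0), in every library (points) with mean and SD (bars, n = 3 per group). The ratio is 8.34 ± 0.536 in R98W and 6.90 ± 0.626 in WT, and without SCD the libraries overlap through WT replicate 1.

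Glycerolipid assembly held both the largest fall among the 41 genes, in GPAM, and a rise of LPIN1. Of its 6 genes 1 was higher and 1 lower, beside 16.2% and 18.5% of all tested genes, with a median of -0.087. GPAM, the mitochondrial acyltransferase that starts glycerolipid synthesis on glycerol phosphate, had 12.4, 12.6 and 11.5 CPM in R98W, against 22.5, 27.98 and 27.1 CPM in WT. Every R98W library was below every WT library, at -1.09 ± 0.09 on the log2 scale (SE, edgeR adjusted p = 5.96e-08). LPIN1, a phosphatidate phosphatase that also acts as a transcriptional coactivator, had 89.8, 100.01 and 95.6 CPM in R98W, against 72.9, 70.1 and 68.5 CPM in WT. Its groups were apart, at 0.43 ± 0.07 on the log2 scale (SE, edgeR adjusted p = 5.14e-05). DGAT2, which makes triglyceride in the last step, had 5.78, 5.67 and 6.29 CPM in R98W, against 4.85, 4.98 and 5.26 CPM in WT, with all R98W values above WT, yet it was not called, at 0.23 ± 0.12 on the log2 scale (SE, edgeR adjusted p = 0.134). With the expression level corrected DGAT2 was called higher (0.35, edgeR adjusted p = 0.0251). DGAT1, the other enzyme of that step, had 16.9, 15.9 and 18.3 CPM in R98W, against 18.7, 19.4 and 18.3 CPM in WT, with overlap, at -0.14 ± 0.08 on the log2 scale (SE, edgeR adjusted p = 0.22). AGPAT2, which adds the second acyl chain, and LPIN2, another lipin, were not called, at log2 fold changes of -0.10 and -0.077 (edgeR adjusted p = 0.357 and 0.466). Without WT replicate 1 the calls of the 6 genes were the same, with GPAM at -1.19 and LPIN1 at 0.45 (edgeR adjusted p = 2.02e-08 and 0.000106). DGAT1 overlaps HSF1 on the other strand.

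Shares of some isoenzymes in their families moved with these genes. In the summed level per kilobase of GPAM, GPAT3 and GPAT4, the share of GPAM was 4.40, 4.37 and 4.19% in R98W, against 8.67, 10.9 and 10.8% in WT. The share of GPAT3, an isoenzyme of the endoplasmic reticulum, was 62.02, 62.4 and 62.3% in R98W, against 54.5, 52.1 and 54.7% in WT. GPAT3 was called higher, with 61.9 ± 1.51 CPM in R98W and 48.6 ± 1.43 CPM in WT (SD, n = 3 each), or 0.35 on the log2 scale (edgeR adjusted p = 0.000374). Among the lipins, the share of LPIN1 was 47.5, 51.2 and 50.5% in R98W, against 39.2, 37.7 and 37.9% in WT. That of LPIN3 was 13.4, 13.2 and 16.2% in R98W, against 20.6, 22.6 and 23.7% in WT. For each of these 4 genes the shares of the groups did not overlap, whereas that of LPIN2 overlapped. LPIN3 was called lower, with 10.5 ± 1.13 CPM in R98W and 15.8 ± 0.908 CPM in WT (SD, n = 3 each), or -0.59 on the log2 scale (edgeR adjusted p = 0.000111).

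**Figure D5:**
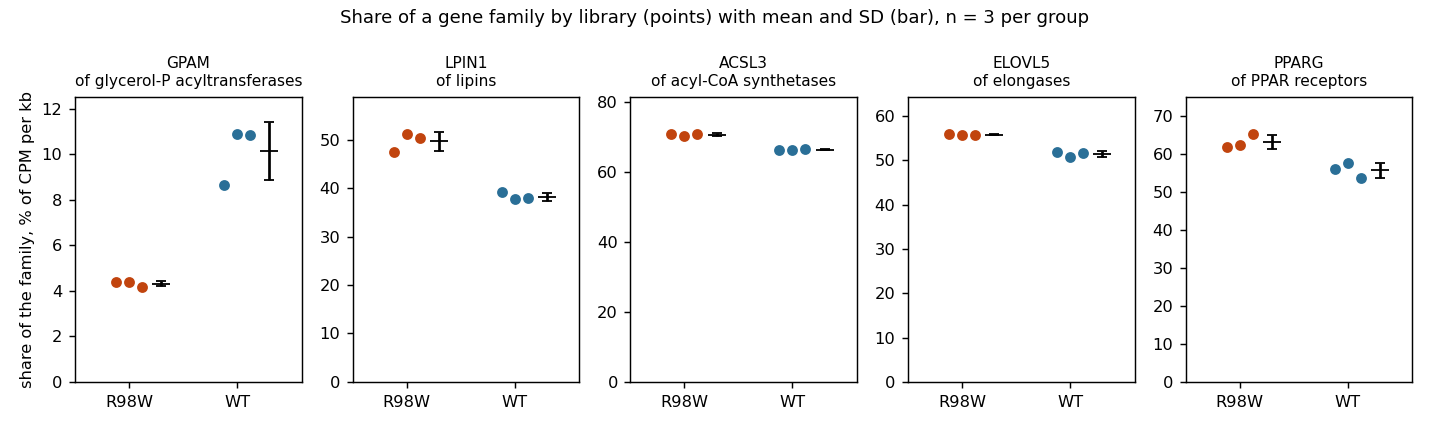
Share of 5 genes in the summed level per kilobase of their family (y axes, percent, from 0) in every library (points) with mean and SD (bars, n = 3 per group). GPAM holds 4.32 ± 0.117% in R98W and 10.1 ± 1.27% in WT, and LPIN1, ACSL3, ELOVL5 and PPARG hold larger shares in R98W, with no overlap. Shares of FADS1, FADS2, FADS3, ELOVL1, ELOVL3, ELOVL7, CPT1B, LPIN2 and PPARA overlapped and are not drawn. By level, 21.3% of all tested genes did not overlap on the higher side and 24.2% on the lower side.

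Of the 4 genes of lipid droplets, lipolysis and fatty acid binding, PNPLA2 was called higher and the others were not called, with a median of 0.17. Among all tested genes 16.2% were higher and 18.5% lower. PNPLA2, the adipose triglyceride lipase, had 33.5, 31.6 and 36.3 CPM in R98W, against 31.3, 25.5 and 29.01 CPM in WT. It was higher in each R98W library, at 0.24 ± 0.08 on the log2 scale (SE, edgeR adjusted p = 0.033). PLIN2, the droplet coat protein found in most cells, had 34.2, 31.5 and 31.3 CPM in R98W, against 31.6, 39.3 and 31.1 CPM in WT, with overlap, at -0.073 ± 0.09 on the log2 scale (SE, edgeR adjusted p = 0.566). PLIN3, a coat protein of nascent droplets, had 55.9, 48.4 and 59.7 CPM in R98W, against 48.9, 47.7 and 47.9 CPM in WT. WT replicate 1 was above R98W replicate 2, and the gene was not called, at 0.18 ± 0.08 on the log2 scale (SE, edgeR adjusted p = 0.0717). FABP5, a fatty acid binding protein of epithelia, had 43.1, 49.8 and 50.5 CPM in R98W, against 39.3, 46.8 and 43.1 CPM in WT, with overlap, at 0.15 ± 0.08 on the log2 scale (SE, edgeR adjusted p = 0.157). FABP5 has processed pseudogenes, so the split of its reads is uncertain. Without WT replicate 1 PNPLA2 alone of the 4 was called, at 0.30 (edgeR adjusted p = 0.0132). The PNPLA2 call ended without R98W replicate 1, R98W replicate 3, WT replicate 2 or WT replicate 3 (edgeR adjusted p from 0.0694 to 0.176), with a log2 fold change of 0.15 without WT replicate 2, and PLIN3 was called without R98W replicate 2 (edgeR adjusted p = 0.0189).

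Among the PPAR nuclear receptors PPARD was lower in R98W, and ANGPTL4, a secreted inhibitor of lipoprotein lipase and a PPAR target that hypoxia and other stresses also induce, had the largest rise of the 41 genes. Of these 4 genes 1 was higher and 1 lower, beside 16.2% and 18.5% of all tested genes, with a median of 0.07. ANGPTL4 had 19.95, 15.8 and 19.5 CPM in R98W, against 9.51, 8.16 and 7.92 CPM in WT. The R98W libraries were all above the WT libraries, at 1.11 ± 0.11 on the log2 scale (SE, edgeR adjusted p = 2.61e-07). PPARD had 10.9, 11.3 and 10.1 CPM in R98W, against 12.9, 13.9 and 15.2 CPM in WT. All R98W values were below all WT values, at -0.38 ± 0.10 on the log2 scale (SE, edgeR adjusted p = 0.00445). PPARG, best known from fat cells, had 30.97, 31.3 and 31.2 CPM in R98W, against 26.7, 28.7 and 26.7 CPM in WT, higher in each R98W library but not called, at 0.19 ± 0.07 on the log2 scale (SE, edgeR adjusted p = 0.0522). PPARA, best known for oxidation genes in liver, had 23.03, 21.8 and 18.2 CPM in R98W, against 22.9, 20.5 and 21.8 CPM in WT, with overlap, at -0.049 ± 0.09 on the log2 scale (SE, edgeR adjusted p = 0.726). The share of PPARG in the summed level per kilobase of the 3 receptors was 62.02, 62.3 and 65.4% in R98W, against 56.02, 57.6 and 53.8% in WT, with no overlap. Without WT replicate 1 the calls of the 4 genes were the same, with ANGPTL4 at 1.19 and PPARD at -0.44 (edgeR adjusted p = 4.2e-07 and 0.00186), while PPARG was called without WT replicate 2 (edgeR adjusted p = 0.0415). ANGPTL4 overlaps RAB11B-AS1 on the other strand, a gene under 1 CPM on average.

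Further genes of the pathway were counted from lists chosen by function, with earlier results of these data known. Of 18 tested regulators of lipid synthesis 4 were higher and 2 lower, beside 16.2% and 18.5% of all tested genes. They were 5 and 3 without WT replicate 1 and 3 and 4 with the expression level corrected. The median log2 fold change of the list was 0.025 without that correction and 0.029 with it. INSIG1, the SREBP target that holds SCAP in the endoplasmic reticulum, had 90.2 ± 1.75 CPM in R98W and 63.2 ± 2.49 CPM in WT (SD, n = 3 each), or 0.51 on the log2 scale (edgeR adjusted p = 5.9e-06). NR1H3, the nuclear receptor LXR alpha, which induces SREBF1, had 5.94 ± 0.322 CPM in R98W and 10.9 ± 1.29 CPM in WT (SD, n = 3 each), or -0.87 on the log2 scale (edgeR adjusted p = 8.2e-06). PRKAA1, a catalytic subunit of the kinase AMPK, had a log2 difference of 0.38 (edgeR adjusted p = 0.000631). SREBF1 itself was at 0.075 (edgeR adjusted p = 0.452) and not called, SREBF2 at 0.29 (edgeR adjusted p = 0.00289) and SCAP at -0.28 (edgeR adjusted p = 0.00223). With the expression level corrected, SREBF2 was not called (0.16, edgeR adjusted p = 0.0589) and SREBF1 was at -0.064 (edgeR adjusted p = 0.497). NR1H3 overlaps ACP2 on the other strand.

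Among 16 further tested genes of synthesis, elongation and desaturation 5 were higher and 3 lower, beside 16.2% and 18.5% of all tested genes. They were 6 and 3 without WT replicate 1 and 4 and 2 with the expression level corrected. The median log2 fold change of the list was 0.074 without that correction and 0.022 with it. HACD1 and HACD4 encode dehydratases of the elongation cycle. HACD4 fell, with 2.78 ± 0.513 CPM in R98W and 7.67 ± 0.457 CPM in WT (SD, n = 3 each), or -1.46 on the log2 scale (edgeR adjusted p = 2.48e-07), and HACD1 rose, with 28.9 ± 1.32 CPM in R98W and 19.5 ± 1.14 CPM in WT (SD, n = 3 each), or 0.57 on the log2 scale (edgeR adjusted p = 1.83e-05). ACSS1, the mitochondrial acetyl-CoA synthetase, had 45.1 ± 3.14 CPM in R98W and 29.2 ± 2.99 CPM in WT (SD, n = 3 each), or 0.63 on the log2 scale (edgeR adjusted p = 9.81e-06). SCD5, the second stearoyl desaturase, was at -0.51 (edgeR adjusted p = 3.08e-05), the opposite direction to SCD.

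Of 19 further tested genes of mitochondrial oxidation 3 were higher and 8 lower, beside 16.2% and 18.5% of all tested genes. They were 3 and 8 without WT replicate 1 and 2 and 7 with the expression level corrected. The median log2 fold change of the list was -0.20 without that correction and -0.12 with it. ACADSB, a dehydrogenase of short branched chains that also serves isoleucine breakdown, had 23.5 ± 1.74 CPM in R98W and 43.6 ± 2.68 CPM in WT (SD, n = 3 each), or -0.89 on the log2 scale (edgeR adjusted p = 9.57e-08). DECR1, the dienoyl-CoA reductase needed for unsaturated chains, had 24.5 ± 1.92 CPM in R98W and 42.5 ± 4.23 CPM in WT (SD, n = 3 each), or -0.80 on the log2 scale (edgeR adjusted p = 8.67e-07), and overlaps NBN on the other strand. CPT1C, a brain-type relative of CPT1A, had 1.24 ± 0.335 CPM in R98W and 3.40 ± 1.02 CPM in WT (SD, n = 3 each), or -1.45 on the log2 scale (edgeR adjusted p = 5.7e-05). The share of CPT1A in the summed level per kilobase of CPT1A, CPT1B and CPT1C was 98.9, 98.4 and 98.2% in R98W, against 97.3, 96.3 and 96.4% in WT, with no overlap. Of the electron transfer flavoprotein genes, which take electrons from the acyl-CoA dehydrogenases, ETFA was at 0.36 (edgeR adjusted p = 0.000213), ETFB at 0.25 (edgeR adjusted p = 0.0254) and the oxidoreductase ETFDH at -0.53 (edgeR adjusted p = 0.000227). The ETFB call ended without R98W replicate 1, R98W replicate 3, WT replicate 2 or WT replicate 3 (edgeR adjusted p from 0.0673 to 0.129).

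Of 8 further tested genes of glycerolipid assembly 2 were higher and 3 lower, beside 16.2% and 18.5% of all tested genes. They were 2 and 3 without WT replicate 1 and 2 and 3 with the expression level corrected. The median log2 fold change of the list was 0.062 without that correction and -0.027 with it. AGPAT3, which adds the second acyl chain, was lower, with 48.4 ± 3.54 CPM in R98W and 69.5 ± 2.72 CPM in WT (SD, n = 3 each), or -0.52 on the log2 scale (edgeR adjusted p = 1.36e-05). The other named genes of this list, GPAT3 and LPIN3, are described with GPAM and LPIN1.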

How the data were processed

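The deposited table holds raw read counts per gene, 1 column for each of the 6 libraries. CASAVA 1.8, HISAT2 2.1.0, HTSeq 0.11.3 and hg38 are listed in the submitters' processing notes, with no roles. For annotation, strand setting and filters: not given in the sources used here. Hence it is not known whether reads of overlapping genes on opposite strands were told apart. Overlaps are those of whole gene spans and need not involve exons. All 58721 identifiers matched GENCODE release 29, which gave names, positions and exon lengths. The test was edgeR 4.0.16 under R 4.3.3 (filterByExpr with a minimum count of 10 and total of 15, TMM, quasi-likelihood test of R98W against WT on all 6 libraries, Benjamini-Hochberg over 20713 genes). The SE of a log2 fold change came from the test statistic. The pipeline was also run on simulated data drawn without a shift by expression level, so that run does not bear on that shift. Levels per kilobase divide CPM by the exon length.

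Values in every library are given for the 4 genes of each role with the smallest p and for called genes with a log2 fold change of at least 0.5 in size. Further pathway lists name the 3 called genes with the smallest p, and a few more (SREBF1, SREBF2, SCAP, SCD5, ETFA, ETFB, ETFDH) were chosen after their values were seen. The genes and lists were chosen with earlier results of these data known. Alternatives were 2 other scalings, 2 filters, the replicate block, DESeq2 1.42.0, limma-voom (limma 3.58.1), each library left out, a threshold of 0.01 and lowess corrections for expression level, GC content and exon length. Promoter sequences are from RefSeq (GRCh38.p14).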

Additional observations from a re-analysis of the deposited data

How the results depend on the processing

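For the 41 genes, 697 values under 17 alternatives gave 584 with the same direction and side of the threshold, 66 calls ended with the sign kept, 31 calls gained and 16 changes of sign, of which those of ACLY and FADS2 also ended a call. The count of fatty acid genes called higher, 14 as reported, was 8 with the expression level correction, 22 with the GC content correction, 23 with the exon length correction and 7 at a threshold of 0.01, where 2143 of all genes were higher. With the corrections, in that order, 3037, 3885 and 3953 of all genes were higher, against 3364 as reported. Leaving out 1 library gave 6 to 15 higher and 5 to 8 lower fatty acid genes, the fewest higher without R98W replicate 1, and 2340 to 3268 higher and 3060 to 3944 lower genes overall. The synthesis median was 0.067 and the oxidation median -0.052 with the expression level correction. The cause was not tested. That correction turned the sign of ACLY (-0.039), ACACA (-0.023), FADS2 (-0.016), ACSL4 (-0.10), HADHA (-0.14), HADHB (-0.10), SREBF1 (-0.064), and the GC correction that of ACSL4 (-0.064). Without 1 library ACSL4 ran from -0.057 to 0.078, ACADS ran from -0.16 to 0.027, HADHA ran from -0.0005 to 0.078, HADHB ran from -0.015 to 0.088, PLIN2 ran from -0.14 to 0.034, PPARA ran from -0.12 to 0.047, all not called. KAT8 was called with no low-count filter (0.61, edgeR adjusted p = 6.72e-16) and with the replicate block (1.22, edgeR adjusted p = 0.000788), and ran from 0.063 to 1.01 without 1 library. With the replicate number as a block 12 fatty acid genes were higher and 7 lower, against 14 and 7. All tested genes then had 3205 higher and 3678 lower, against 3364 and 3839. Deviations of same-numbered libraries correlated at 0.006, -0.039 and -0.037, so no pairing by number was seen. Values near 0 over all tested genes cannot show whether the libraries were handled in pairs. The least abundant of the 41 genes, ACSL5, had 39 to 151 counts per library, which limits its precision.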

Other observations

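Fatty acid genes outside the 41 gave these values. Of 22 tested genes of fatty acid uptake, minor activation enzymes and thioesterases 5 were higher and 10 lower, beside 16.2% and 18.5% of all tested genes. They were 4 and 10 without WT replicate 1 and 4 and 9 with the expression level corrected. The median log2 fold change of the list was -0.47 without that correction and -0.32 with it. ACSF2, a mitochondrial acyl-CoA synthetase, had 4.17 ± 0.709 CPM in R98W and 16.3 ± 2.72 CPM in WT (SD, n = 3 each), or -1.97 on the log2 scale (edgeR adjusted p = 6.84e-09). ACSF3, the mitochondrial malonyl-CoA synthetase, had 8.94 ± 0.468 CPM in R98W and 15.6 ± 0.674 CPM in WT (SD, n = 3 each), or -0.80 on the log2 scale (edgeR adjusted p = 2.24e-06). FABP6, a bile acid binding protein of the ileum, had 0.117 ± 0.0241 CPM in R98W and 0.876 ± 0.196 CPM in WT (SD, n = 3 each), or -2.90 on the log2 scale (edgeR adjusted p = 5.31e-06). ACSF2 overlaps CHAD on the other strand and ACSF3 overlaps LINC00304 on its own strand, and both of those genes averaged under 1 CPM.

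Of 11 tested peroxisomal oxidation genes 3 were higher and 2 lower, beside 16.2% and 18.5% of all tested genes. They were 3 and 3 without WT replicate 1 and 3 and 2 with the expression level corrected. The median log2 fold change of the list was -0.074 without that correction and -0.075 with it. ABCD3, a peroxisomal acyl-CoA transporter, had 177 ± 10.1 CPM in R98W and 127 ± 9.55 CPM in WT (SD, n = 3 each), or 0.48 on the log2 scale (edgeR adjusted p = 3.4e-05). HSD17B4, the bifunctional enzyme, was at -0.39 (edgeR adjusted p = 0.000224) and the oxidase ACOX3 at -0.65 (edgeR adjusted p = 0.000229). ACOX3 overlaps TRMT44 on the other strand. Of 12 tested further droplet and lipolysis genes 1 were higher and 4 lower, beside 16.2% and 18.5% of all tested genes. They were 2 and 4 without WT replicate 1 and 1 and 3 with the expression level corrected. The median log2 fold change of the list was -0.19 without that correction and -0.071 with it. PNPLA4 was at -1.07 (edgeR adjusted p = 6.95e-06), the hormone-sensitive lipase gene LIPE at -0.85 (edgeR adjusted p = 0.00153) and FITM2, which takes part in droplet formation, at -0.25 (edgeR adjusted p = 0.0118). The FITM2 call ended without R98W replicate 3 (edgeR adjusted p = 0.0629), where 2 of the 12 genes were lower, while 0 were higher without R98W replicate 1, and LIPE overlaps LIPE-AS1 on the other strand.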
